A study of Mus musculus with 75 samples.

Results

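The D1 and D2 lines were compared in the 18 of 75 libraries whose counts on silent receptor genes were lowest. Olfactory and vomeronasal receptor genes are normally silent in brain neurons, and the counts on 1435 of them (symbols Olfr, Vmn1r or Vmn2r followed by a number) were summed and divided by the total count of each library. A library was kept with a total of at least 2000000 counts and under 2500 counts per 1000000 (CPM) on these genes. Of the 75 libraries, 70 reached the total, 18 fell under the limit and 52 did not. The libraries were thus chosen by their silent receptor counts; these genes stayed in the table that was tested, and none of them passed in the comparisons as fitted with TMM scaling, the treatment term and filterByExpr. That sum was 391 to 1719 CPM (median 776) in the D1 libraries kept. In the D2 libraries kept it was 520 to 2473 CPM (median 1354), and both are given as a description only. The libraries nearest the limit were D2_CC 9 with 2232 CPM and D2_SC 1 with 2473 CPM inside it, and D1_SC 1 with 2708 CPM and D1_SS 6 with 2767 CPM outside it.

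All libraries came from nuclei of the nucleus accumbens, a ventral part of the striatum, of male mice. The nuclei carried a green fluorescent tag (LSL-eGFP::L10a, switched on by Cre) and were purified by fluorescence activated sorting. Cre came from D1-Cre in the D1 line and from D2-Cre in the D2 line, so every group carried the tag and 1 Cre transgene. The first letter of a treatment is the injection on each of 10 days and the second is the challenge after 30 days of withdrawal, where S stands for saline and C for cocaine (20 mg/kg, intraperitoneal). Tissue was taken 1 h after the challenge. The 7 D1 libraries kept were 4 SC (replicates 2, 3, 4 and 9), 1 CS (3) and 2 CC (1 and 3). The 11 D2 libraries kept were 1 SS (9), 4 SC (1, 3, 4 and 7), 3 CS (1, 3 and 5) and 3 CC (1, 3 and 9). No D1_SS library was kept. Treatment was a term of the fit for that reason, and the D1 and D2 groups still differ in their mix of treatments. As the only SS library, D2_SS 9 is fitted by its own treatment term and does not bear on the fitted line change. The labels do not give the animals behind a library, so p values measure the spread between libraries.

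Most neurons of the striatum are medium spiny neurons, which send inhibitory output and fall into a pair of classes. Neurons of the direct pathway carry the D1 dopamine receptor (Drd1), which raises cAMP, and make the peptide precursors Tac1 (substance P) and Pdyn (dynorphin). Neurons of the indirect pathway carry the D2 receptor (Drd2), which lowers cAMP, together with the adenosine receptor Adora2a and the enkephalin precursor Penk. D1-Cre and D2-Cre are transgenes driven by the regulatory regions of the receptor genes, so the sort selects nuclei by the activity of such a transgene and not by receptor protein. RNA from a native gene and from any copy of it that a transgene holds cannot be told apart in gene counts. Fewer nuclei of a type and less RNA in each nucleus cannot be told apart in these bulk libraries either.

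Total counts were 3620358 to 25320198 in the 7 D1 libraries and 2414150 to 21171985 in the 11 D2 libraries. No pair of libraries was identical. D2_SC 4 and D2_SC 7 stood far closer to each other than any other pair, with a chi-square of 1.88 per degree of freedom over genes, against 8.62 for the next pair, which is more than counting noise gives. They were kept as separate libraries, and summing them into 1 left 6 genes called, the same number as below. D1_CC 1 and D1_CC 3 stood apart, with 38.5% and 34.0% of counts in genes longer than 100 kb, against 54.7% to 63.9% in the other 5 D1 libraries. The D2 libraries had 44.2% to 62.2%, lowest in D2_CS 1. Mitochondrial counts made up 0.446% and 0.327% in these 2 D1_CC libraries and 0.0119% to 0.0826% in the other D1 libraries. They made up 0.215% to 0.735% in D2_CS 1, D2_CS 3, D2_CS 5 and D2_SC 1, and 0.119% or less in the other 7 D2 libraries. On 12 oligodendrocyte markers the D1 libraries had 128 to 534 CPM in sum and 8 of the D2 libraries 118 to 352 CPM, while D2_CS 3, D2_CS 5 and D2_SC 1 held 1911, 1111 and 1207 CPM. None of the 12 was at 0 in every library, and only Opalin was at 0 in 1 library.

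In the fit of D1 minus D2, 6 of 26638 genes passed an adjusted p of 0.05 (edgeR's quasi-likelihood test with Benjamini-Hochberg adjustment), which is 0.0225% of the genes tested. Sfxn1 and Cntnap3 (0.00751% of the genes) were higher in D1, whereas Drd2, Ttc12, Ndnf and Ankk1 (0.015%) were lower. Of the 6, Sfxn1 lies beside Drd1 on chromosome 13, and Ttc12 and Ankk1 lie beside Drd2 on chromosome 9. Without adjustment, 1237 genes (4.64%) had p under 0.05, of which 275 (1.03%) were higher and 962 (3.61%) were lower in D1. With the log2 silent receptor counts as a covariate, 285 were higher and 311 lower. In SC libraries alone 240 were higher and 581 lower, and in the other treatments 475 were higher and 156 lower. The excess of lower genes thus depended on the setting. The median change over all genes tested was 0.00 on the log2 scale. In simulated data with the same libraries the fit recovered 12 of 100 genes changed 2-fold and 59 of 100 changed 4-fold, so a gene that did not pass may still differ.

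The 4 sequences that follow are the 250 bases before the RefSeq start (build GRCm38.p6) of the called genes whose start sequence was available. They are given 5' to 3' on the strand of the gene. Capitals mark the GC box GGGCGG or its reverse complement CCGCCC, the usual binding letters of Sp1-type factors. Drd2 lies on the plus strand (chr9:49340153-49340402), Ttc12 on the minus strand (chr9:49486226-49486475), Sfxn1 on the plus strand (chr13:54071595-54071844) and Cntnap3 on the minus strand (chr13:64903889-64904138).
Drd2: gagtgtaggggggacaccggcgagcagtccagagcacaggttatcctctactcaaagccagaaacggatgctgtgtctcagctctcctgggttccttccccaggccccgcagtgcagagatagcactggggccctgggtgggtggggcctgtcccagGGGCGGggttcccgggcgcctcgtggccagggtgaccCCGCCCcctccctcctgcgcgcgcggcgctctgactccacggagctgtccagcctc
Ttc12: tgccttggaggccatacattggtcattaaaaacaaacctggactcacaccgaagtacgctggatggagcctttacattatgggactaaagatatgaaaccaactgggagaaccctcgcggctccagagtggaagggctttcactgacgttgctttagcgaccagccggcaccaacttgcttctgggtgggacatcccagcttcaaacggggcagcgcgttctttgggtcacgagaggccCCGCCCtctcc
Sfxn1: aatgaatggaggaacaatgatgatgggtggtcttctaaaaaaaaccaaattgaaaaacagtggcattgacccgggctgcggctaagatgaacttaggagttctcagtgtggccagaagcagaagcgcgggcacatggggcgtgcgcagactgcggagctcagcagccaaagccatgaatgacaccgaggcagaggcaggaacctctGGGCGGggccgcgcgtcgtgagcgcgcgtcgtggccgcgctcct
Cntnap3: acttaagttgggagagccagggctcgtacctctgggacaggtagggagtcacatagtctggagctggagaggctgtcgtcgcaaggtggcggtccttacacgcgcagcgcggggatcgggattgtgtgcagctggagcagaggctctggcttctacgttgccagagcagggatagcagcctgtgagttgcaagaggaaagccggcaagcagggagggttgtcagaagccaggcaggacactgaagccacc

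The Drd2 window held 2 GC boxes, the Ttc12 and Sfxn1 windows 1 each and the Cntnap3 window 0, on either strand, and no match overlapped another. Over all 32851 windows of this length, 32.7% held at least 1. The letters TATAAA, searched on both strands, were in none of the 4 windows and in 12.4% of all windows. TGACG, the half-site of the cAMP response element, was found on either strand once in the Ttc12 window and in 17.8% of all windows. The share of G and C was 68.8% in the Drd2 window, 54.8% in that of Ttc12, 58.0% in that of Sfxn1 and 60.4% in that of Cntnap3, against a median of 52.4% over all windows.

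Drd2 (ENSMUSG00000032259.8, chromosome 9, 49340627 to 49408177, mm10) separated the lines completely. It stood at 49.5 to 118 CPM with a median of 83.0 in the 7 D1 libraries, and at 388 to 2805 CPM with a median of 1116 in the 11 D2 libraries. The highest D1 library was D1_SC 3, and the lowest D2 libraries were D2_CS 5 (388 CPM), D2_CS 3 (417 CPM) and D2_SC 1 (512 CPM), the same 3 that held the most oligodendrocyte marker counts. The part of those counts in the low Drd2 was not tested. The change was -4.19 ± 0.43 on the log2 scale (SE, adjusted p = 4.03e-05, edgeR). Without these 3 libraries it was -4.55 and 18 genes passed in place of 6.

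Ttc12 and Ankk1, the genes downstream of Drd2, were lower in D1 with it. Ttc12, a tetratricopeptide repeat protein used in assembling ciliary dynein arms, stood at 4.15 to 26.9 CPM (median 9.29) in D1 and 29.8 to 108 CPM (median 48.9) in D2, with no overlap. The closest values were D1_SC 3 with 278 counts (26.9 CPM, 95% Wilson interval 24.0 to 30.3) and D2_CS 3 with 72 counts (29.8 CPM, 23.7 to 37.6), so these libraries could not be separated at this depth; such intervals cover counting error only. The log2 change of Ttc12 was -2.42 ± 0.34 (adjusted p = 0.00271, edgeR). Ankk1, a kinase with ankyrin repeats, stood at 1.93 to 13.0 CPM (median 4.54) in D1 and 4.14 to 76.0 CPM (median 37.4) in D2. The groups overlapped through D2_CS 3, where 10 counts gave 4.14 CPM. The log2 change of Ankk1 was -2.93 ± 0.49 (adjusted p = 0.0209, edgeR). It was the least firm of the 6, since it no longer passed when D1_CC 1, D1_CC 3, D1_SC 2, D1_SC 4 or D2_CS 1 was left out (adjusted p = 0.117, 0.102, 0.0541, 0.0523 and 0.0550 in that order, edgeR).

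Sfxn1, a mitochondrial serine transporter whose gene begins 16164 bases from Drd1, did not overlap between the lines either. It stood at 94.4 to 192 CPM (median 113) in D1 and 18.5 to 81.2 CPM (median 26.4) in D2. All 7 D1 libraries were above all 11 D2 libraries, of which 10 lay at or under 32.7 CPM and only D2_CS 3 reached 81.2 CPM. The log2 change was 2.31 ± 0.28 (adjusted p = 0.000364, edgeR). With the limit on silent receptor counts at 1500 CPM, Sfxn1 and Cntnap3 no longer passed (adjusted p = 0.0766 and 0.0947, edgeR). Drd2, Sfxn1, Ttc12, Cntnap3 and Ndnf passed in each of the 18 fits that left out 1 library.

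**Figure D1:**
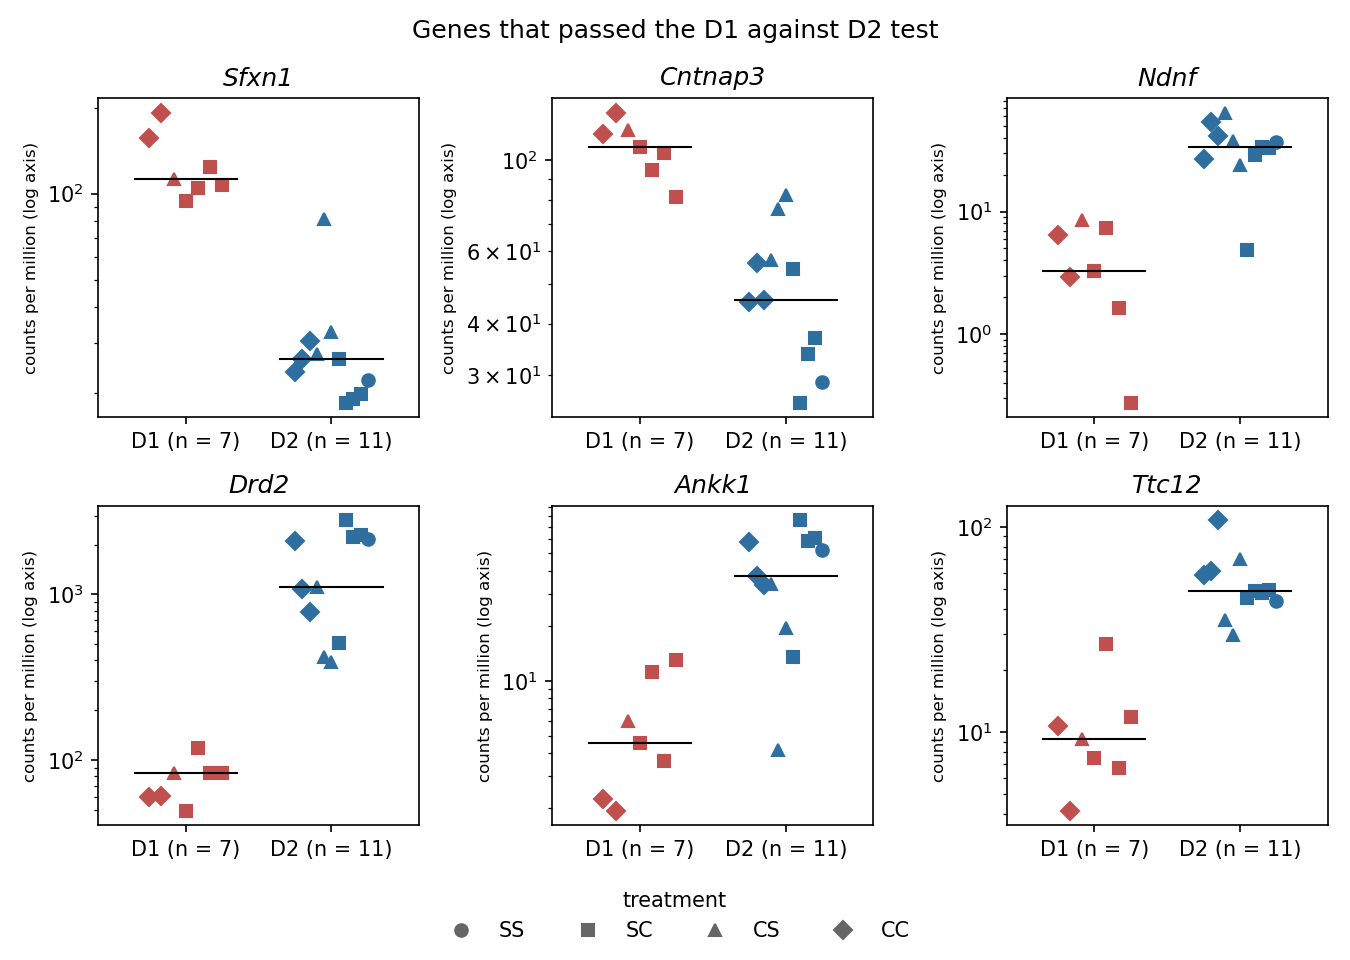
CPM (log axis) of the 6 genes that passed, with 1 symbol per low-background library, D1 left of D2, shapes for treatments and a line at the median. Sfxn1, Drd2 and Ttc12 did not overlap between the lines, and Ndnf, Ankk1 and Cntnap3 each overlapped through 1 D2 library.

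Cntnap3, a contactin-associated cell adhesion protein, stood at 81.5 to 131 CPM (median 108) in D1 and 25.6 to 82.4 CPM (median 45.6) in D2. The lowest D1 library, D1_SC 9 at 81.5 CPM, lay under 1 D2 library, D2_CS 5 at 82.4 CPM. Its log2 change was 1.28 ± 0.20 (adjusted p = 0.00707, edgeR). Ndnf, a secreted neurotrophic factor, stood at 0.276 to 8.54 CPM (median 3.28) in D1 and 4.90 to 64.2 CPM (median 33.6) in D2. A single D2 library, D2_SC 1 with 13 counts, lay within the D1 range, and the other 10 D2 libraries were at 23.8 CPM or more. The lowest D1 value, in D1_SC 9, was 1 count (95% Wilson interval 0.0488 to 1.56 CPM). The log2 change of Ndnf was -2.95 ± 0.43 (adjusted p = 0.00480, edgeR).

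**Figure D2:**
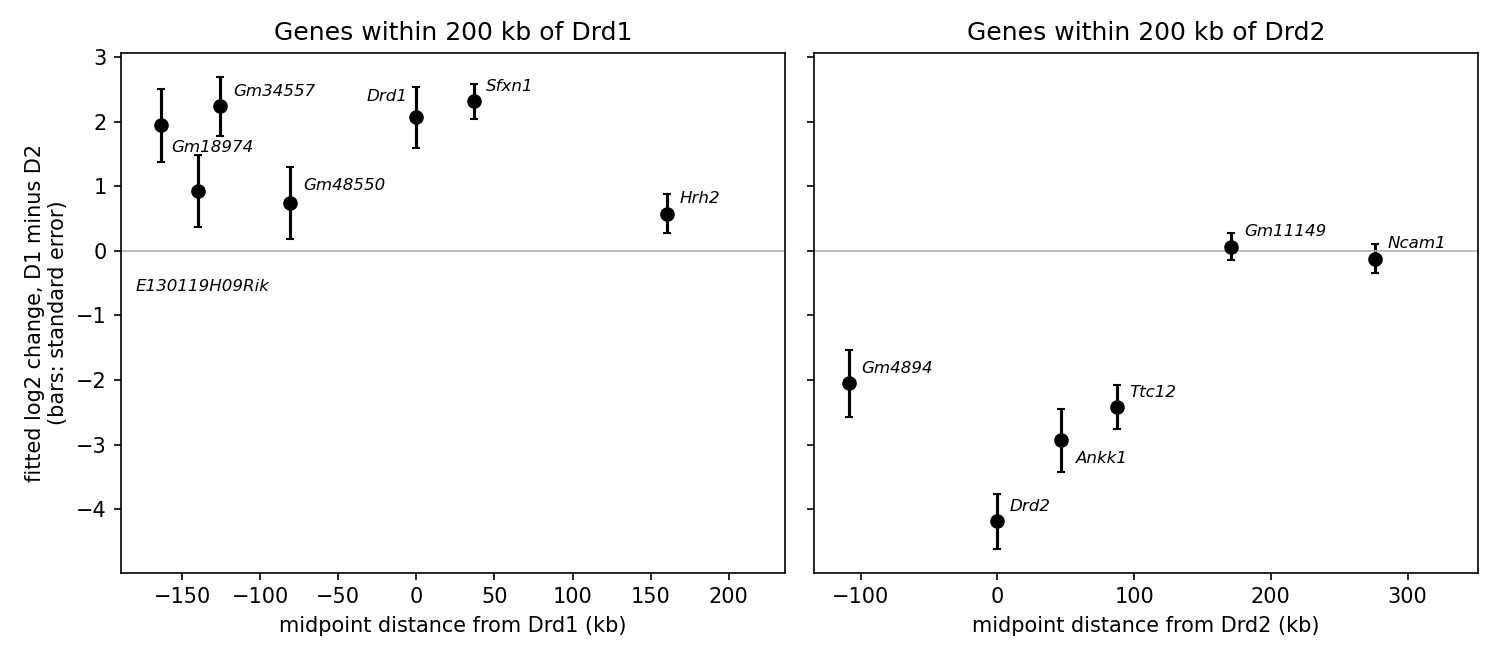
Fitted log2 change, D1 minus D2, with its standard error, against the distance in kb between the midpoint of a gene and that of Drd1 (left) or Drd2 (right), for genes tested in the low-background libraries. Changes were from 0.58 to 2.31 around Drd1, and from -4.19 at Drd2 to 0.07 for Gm11149.

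Within 200 kb of Drd1 lie 9 annotated genes, of which 6 could be tested, and within 200 kb of Drd2 lie 5, all tested. All 6 beside Drd1 had a change above 0, and Sfxn1 alone passed. The lincRNA Gm34557 stood at 9.39 to 18.8 CPM in D1 and 0.377 to 10.5 CPM in D2, where only D2_CS 5 reached the D1 range (log2 change 2.24 ± 0.46, adjusted p = 0.123, edgeR). Hrh2, the histamine H2 receptor on the far side of Sfxn1, had a change of 0.58 ± 0.29. The remaining 3 near Drd1 were the pseudogene Gm18974 (1.94 ± 0.57), E130119H09Rik (0.93 ± 0.55) and the lincRNA Gm48550 (0.74 ± 0.56), all at 15.6 CPM or less in every library. Beside Drd2, Gm4894 had a change of -2.05 ± 0.52 without passing. Ncam1, the neural cell adhesion molecule, had -0.12 ± 0.22, and Gm11149, an antisense gene that overlaps it, 0.07 ± 0.21. The strand setting of the counting is not given in the sources used here, so reads of Ncam1 and Gm11149 may not be separated.

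The direct-pathway markers Drd1, Pdyn and Tac1 were higher in D1 by median, but none passed, and all overlapped. Drd1 (chromosome 13, 54051183 to 54055705, minus strand, mm10) stood at 53.4 to 478 CPM (median 70.2) in D1 and 10.5 to 88.1 CPM (median 20.4) in D2. Its spread in D1 came from 2 libraries, D1_CC 3 with 478 CPM and D1_CC 1 with 366 CPM, whereas the other 5 lay between 53.4 and 84.2 CPM. D2 libraries split too, with 5 of 11 (D2_CC 3, D2_CS 1, D2_CS 3, D2_CS 5 and D2_SC 1) between 48.5 and 88.1 CPM and 6 at or under 20.4 CPM. Of these 5, all but D2_CC 3 are the D2 libraries with the most mitochondrial counts, whose part in Drd1 was not tested. The log2 change of Drd1 was 2.07 ± 0.48 (adjusted p = 0.343, edgeR). It passed in 8 of 35 alternatives, among them DESeq2 (adjusted p = 0.0110), voom weights (5.94e-06), no low-count filter (0.00370) and all 70 libraries (0.000474), and, with edgeR, without D2_SC 1 (2.62, adjusted p = 0.00847) and with the long-gene share as a covariate (1.99, adjusted p = 0.000423).

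Pdyn stood at 47.8 to 477 CPM (median 63.8) in D1 and 6.36 to 79.1 CPM (median 13.4) in D2, with a log2 change of 2.53 ± 0.52 (adjusted p = 0.123, edgeR). It passed in 9 of 36 alternatives, among them DESeq2 (adjusted p = 0.000544) and the fits without D1_CS 3 or D2_SC 1 (adjusted p = 0.00485 and 0.00847, edgeR). Tac1 stood at 41.2 to 493 CPM (median 70.3) in D1 and 16.2 to 138 CPM (median 36.2) in D2, with a log2 change of 1.72 ± 0.41 (adjusted p = 0.437, edgeR); it passed in 6 of 36 alternatives, among them DESeq2 (adjusted p = 0.0240). As for Drd1, D1_CC 1 and D1_CC 3 were the high D1 libraries for Pdyn (420 and 477 CPM) and Tac1 (493 and 467 CPM), and the same libraries had the smallest long-gene shares.

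**Figure D3:**
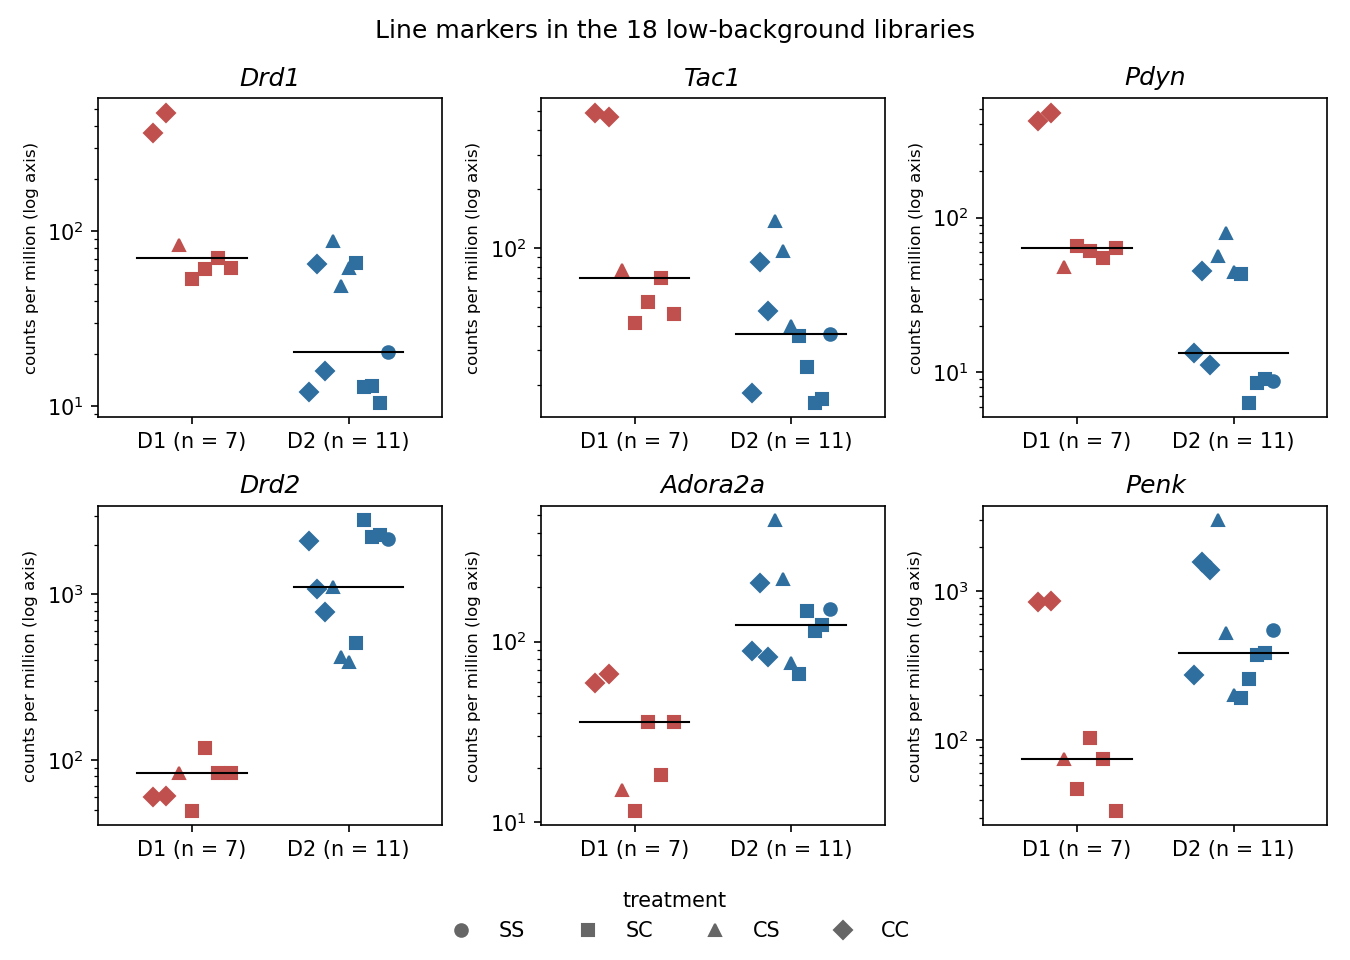
CPM (log axis) of the direct-pathway markers Drd1, Tac1 and Pdyn (top) and the indirect-pathway markers Drd2, Adora2a and Penk (bottom), with 1 symbol per low-background library, D1 left of D2, shapes for treatments and a line at the median. The 2 D1_CC libraries lie above the other D1 libraries for Drd1, Tac1, Pdyn and Penk, and the lines did not overlap for Drd2.

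The indirect-pathway markers Adora2a and Penk were lower in D1 by median without passing. Adora2a stood at 11.6 to 66.5 CPM (median 35.8) in D1 and 66.0 to 469 CPM (median 124) in D2, and only D1_CC 3 at 66.5 CPM exceeded the lowest D2 library. Its log2 change was -2.02 ± 0.42 (adjusted p = 0.123, edgeR), and it passed in 6 of 36 alternatives, among them DESeq2 (adjusted p = 0.00274). Penk stood at 33.7 to 858 CPM (median 74.9) in D1 and 193 to 2998 CPM (median 388) in D2, with a log2 change of -1.85 ± 0.52 (adjusted p = 0.992, edgeR); it passed in 2 of 36 alternatives, voom weights and all 70 libraries. Penk was at 858 CPM in D1_CC 3 and 848 CPM in D1_CC 1, above 8 of the 11 D2 libraries, while the other 5 D1 libraries were at 104 CPM or less. Levels divided by gene length, in CPM per kb, had medians of 15.5 for Drd1 and 1.23 for Drd2 in D1, against 4.51 for Drd1 and 16.5 for Drd2 in D2.

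The ratio of Drd1 to Drd2 counts within a library sets both receptors side by side. Its log2 was -0.95 to 2.99 (median 0.00) in D1 and -7.76 to -2.66 (median -5.63) in D2, with no overlap. D1_SC 3, D1_SC 4 and D1_SC 9 held more Drd2 than Drd1 counts, at log2 ratios of -0.95, -0.24 and -0.45. Drd2 is the longer gene (67.6 kb, against 4.52 kb for Drd1), and per length the log2 ratio was 2.95 to 6.89 in D1 and -3.86 to 1.24 in D2. Without these 3 D1 libraries Sfxn1 and Ttc12 still passed, and Cntnap3, Ndnf and Ankk1 did not (adjusted p = 0.0540, 0.141 and 0.210 in that order, edgeR); the receptors themselves are not read in that fit.

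**Figure D4:**
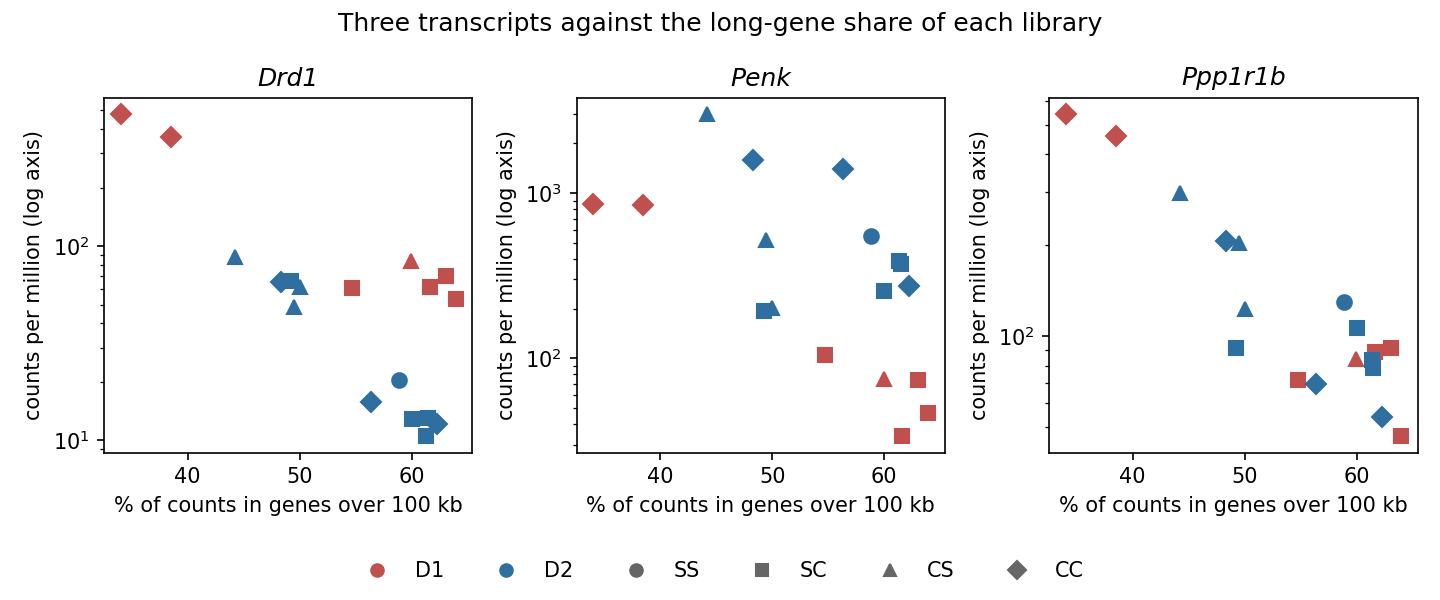
CPM (log axis) of Drd1, Penk and Ppp1r1b in each of the 18 libraries against the percentage of counts in genes over 100 kb, with D1 in red, D2 in blue and shapes for treatments. D1_CC 3 and D1_CC 1, at 34.0% and 38.5%, are high for all 3 genes, as is D2_CS 1, at 44.2%, for Penk and Ppp1r1b.

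The striatal genes Ppp1r1b, Scn4b and Rgs4, picked after their values were seen, were highest in D1_CC 1, D1_CC 3 and D2_CS 1, the libraries with the smallest long-gene shares; other short genes were not surveyed, and Chrm4 was higher in D2_CS 3 (45.6 CPM) than in D2_CS 1 (27.0 CPM). Ppp1r1b (DARPP-32, the phosphoprotein through which dopamine controls protein phosphatase 1) stood at 460 and 542 CPM in D1_CC 1 and D1_CC 3 and at 46.6 to 91.6 CPM in the other 5 D1 libraries, and reached 298 CPM in D2_CS 1. Scn4b, a sodium channel subunit, stood at 409 and 524 CPM in the 2 D1_CC libraries and 41.4 to 117 CPM in the other D1 libraries, and reached 448 CPM in D2_CS 1. Rgs4, which shortens G protein signals, stood at 231 and 260 CPM in the 2 D1_CC libraries and 13.5 to 30.6 CPM in the other D1 libraries, and reached 156 CPM in D2_CS 1. Line changes of the 3 were from 0.24 (Rgs4) to 0.62 (Scn4b), and none passed. With D1_CC 1, D1_CC 3 and D2_CS 1 left out, 1 gene passed in place of 6; with the long-gene share as a covariate, 21 passed, among them all 6. Both settings were chosen after the values were seen, and the part of the long-gene share in the line differences was not tested further.

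Of the 11 direct-pathway markers, Drd1, Tac1 and Pdyn included, 8 had an unadjusted p under 0.05 and were higher in D1. Over all genes tested this share was 1.03%. Only Sfxn1, which lies beside Drd1, passed, and the median log2 change of the 11 was 1.5. This list and the next were chosen with earlier results of these data known, so their counts are a description only. Also among the 8 were Chrm4, the muscarinic M4 receptor (1.5 ± 0.51), Slc35d3, a sugar transporter family member (1.84 ± 0.55), Isl1, a transcription factor (1.02 ± 0.48), and Reln, a secreted glycoprotein (0.64 ± 0.23). Ebf1, Zfp521 and Eya1, transcription regulators used in development, had changes of 0.17 ± 0.39, 0.13 ± 0.31 and -0.52 ± 0.27. Ebf1 stood at 50.8 to 172 CPM in D1 and 24.8 to 354 CPM in D2, highest in D2_SC 1. The summed level of the 11 was 657 to 2194 CPM in D1 and 232 to 996 CPM in D2.

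All 10 indirect-pathway markers, Drd2, Adora2a and Penk included, had an unadjusted p under 0.05 and were lower in D1. Over all genes tested this share was 3.61%. Drd2 and Ttc12, which lies beside it, were the 2 that passed, and the median log2 change was -1.65. Grik3, a kainate receptor subunit, came closest of the rest, at 83.2 to 248 CPM (median 94.0) in D1 and 174 to 533 CPM (median 322) in D2 (log2 change -1.48 ± 0.27, adjusted p = 0.0518, edgeR). Only D1_SC 3, at 248 CPM, reached the D2 range. Grik3 passed without any 1 of D1_CS 3, D1_SC 3, D2_CS 5 and D2_SC 1 (adjusted p = 0.0434, 0.0392, 0.0262 and 0.00847 in that order, edgeR). P2ry1, a receptor for ADP, had -1.82 ± 0.45, the orphan receptor Gpr6 -1.44 ± 0.59, the transcription factor Sp9 -1.27 ± 0.41, Upb1, an enzyme of pyrimidine breakdown, -1.32 ± 0.35, and Gucy1a1, a subunit of the nitric oxide receptor guanylate cyclase, -0.74 ± 0.25. The summed level of the 10 was 310 to 1331 CPM in D1, where D1_CC 3 and D1_CC 1 were the highest, and 1077 to 5738 CPM in D2.

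Markers shared by both classes of medium spiny neuron gave no line difference that passed. The 17 were at 7585 to 12027 CPM in sum in D1 and 5543 to 12556 CPM in D2, with a median log2 change of 0.21 and none at an unadjusted p under 0.05. Of 31 dopamine receptor and cAMP signalling genes tested, a list that does not hold Drd2, 2 were higher and 1 lower in D1 without adjustment and none passed. Of 30 neuropeptide and peptide receptor genes, 4 were higher and 5 lower without adjustment, and of 21 muscarinic, serotonin, adenosine and cannabinoid receptor genes 3 were higher and 6 lower; none passed. Glutamate receptor genes (24), striatal potassium channel genes (30) and striatal transcription factor genes (32) gave 1, 0 and 2 members under an unadjusted p of 0.05, and none passed. Of 49 axon guidance and adhesion genes, Cntnap3 passed, and 3 were higher and 5 lower without adjustment. Of 21 immediate early genes, which respond to neuronal activity within the hour, 1 was higher without adjustment and none passed (median 0.31). These shares are to be read against 1.03% higher and 3.61% lower over all genes, a balance that differed between settings.

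Markers of other cell types gave smaller sums in both lines than those of medium spiny neurons. Astrocyte markers (12) summed to 693 to 1447 CPM in D1 and 789 to 2640 CPM in D2, interneuron markers (14) to 98.6 to 361 CPM in D1 and 67.2 to 272 CPM in D2, and glutamatergic neuron markers (10) to 139 to 329 CPM in D1 and 137 to 538 CPM in D2. The astrocyte sum, with medians of 873 CPM in D1 and 920 CPM in D2, came mostly from Slc4a4, with medians of 560 and 670 CPM. Microglia markers (10) summed to 101 to 197 CPM in D1 and 80.3 to 222 CPM in D2, and endothelial and mural markers (10) to 43.5 to 259 CPM in D1 and 38.2 to 502 CPM in D2. Oligodendrocyte precursor markers (8) summed to 42.9 to 121 CPM in D1 and 17.0 to 233 CPM in D2, and choroid plexus and ependymal markers (6) to 17.5 to 53.8 CPM in D1 and 16.2 to 113 CPM in D2. No member of these lists passed. Without adjustment, 2 of 9 endothelial and mural markers, 1 of 12 astrocyte, 1 of 12 interneuron and 1 of 6 choroid plexus and ependymal markers were lower in D1. Over all genes tested the share lower at this threshold was 3.61%, so these few members are a description only. Changes under 0 were found for all 9 endothelial and mural markers tested (median -0.53), 10 of 12 oligodendrocyte markers (median -0.46), 9 of 12 astrocyte markers (median -0.32), 7 of 8 glutamatergic markers (median -0.34) and 5 of 6 choroid plexus and ependymal markers (median -0.21). Changes above 0 were found for 8 of 12 interneuron markers (median 0.31) and 6 of 10 microglia markers (median 0.17). Precursor markers split into 4 above and 4 under 0. Over all genes tested, 13245 of 26638 were under 0. In D2, the libraries D2_CS 3, D2_CS 5 and D2_SC 1 had the highest endothelial, astrocyte and precursor sums. Their endothelial sums were 237, 502 and 365 CPM in that order, against 173 CPM or less in the other D2 libraries. Their astrocyte sums were 2640, 1730 and 1473 CPM, against 1030 CPM or less. Glutamatergic, interneuron, microglia and choroid sums were not highest in all of them. The part of these libraries in the changes under 0 was not tested. In D1, the highest interneuron, glutamatergic, precursor, microglia, endothelial and choroid sums were all in D1_SC 3, which also had the highest Drd2, Grik3 and Ttc12 of the D1 libraries; the part of these cells in those values was not tested.

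The CPM of the lines did not overlap for 11 of 26638 genes (0.0413%), of which 4 (0.015%) were higher and 7 (0.0263%) lower in D1. Drd2, Sfxn1 and Ttc12 were among them, and the other 8 did not pass (named after their values were seen). Adk, the adenosine kinase, stood at 46.5 to 132 CPM in D1 and 147 to 307 CPM in D2 (log2 change -1.28 ± 0.25, adjusted p = 0.112, edgeR). Zfhx4, a homeobox transcription factor, stood at 67.0 to 97.3 CPM in D1 and 111 to 145 CPM in D2. Sox1ot, an RNA that overlaps Sox1, stood at 65.6 to 103 CPM in D1 and 37.0 to 58.4 CPM in D2. Tub and Stk35 were higher and Mro, Gm13629 and Gm15689 lower in every D1 library, the narrowest gap being 30.5 against 30.4 CPM for Stk35. Sstr4, the somatostatin receptor 4, also named after its values were seen, missed the threshold by little, at 2.71 to 17.5 CPM in D1 and 0 to 2.88 CPM in D2 (2.74 ± 0.49, adjusted p = 0.0516, edgeR).

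The rest of the series, 29 D1 and 23 D2 libraries with 2000000 counts or more, shared no library with the 18 and was fitted the same way. There 50 of 36249 genes (0.138%) passed, of which 24 (0.0662%) had a higher and 26 (0.0717%) a lower level in D1. All 6 genes of the low-background fit passed there in the same direction. Of the 50, 48 could be tested in the low-background libraries, and all 48 had the same sign. The change was larger there for 44. Neither the count of same signs nor that of larger changes was made over all genes, so both are a description only. Standard errors were also larger there for the genes given next, so the 44 are not read as larger line differences. Drd2 had a change of -4.19 ± 0.43 in the 18, against -2.72 ± 0.31 in the other libraries, and Sfxn1 had 2.31 ± 0.28 in the 18 against 1.69 ± 0.12. Drd1 (1.95 ± 0.25), Pdyn (1.90 ± 0.25) and Tac1 (1.53 ± 0.26) passed in the other libraries, and so did Adora2a (-1.41 ± 0.26), while Penk (-0.94 ± 0.36) did not.

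**Figure D5:**
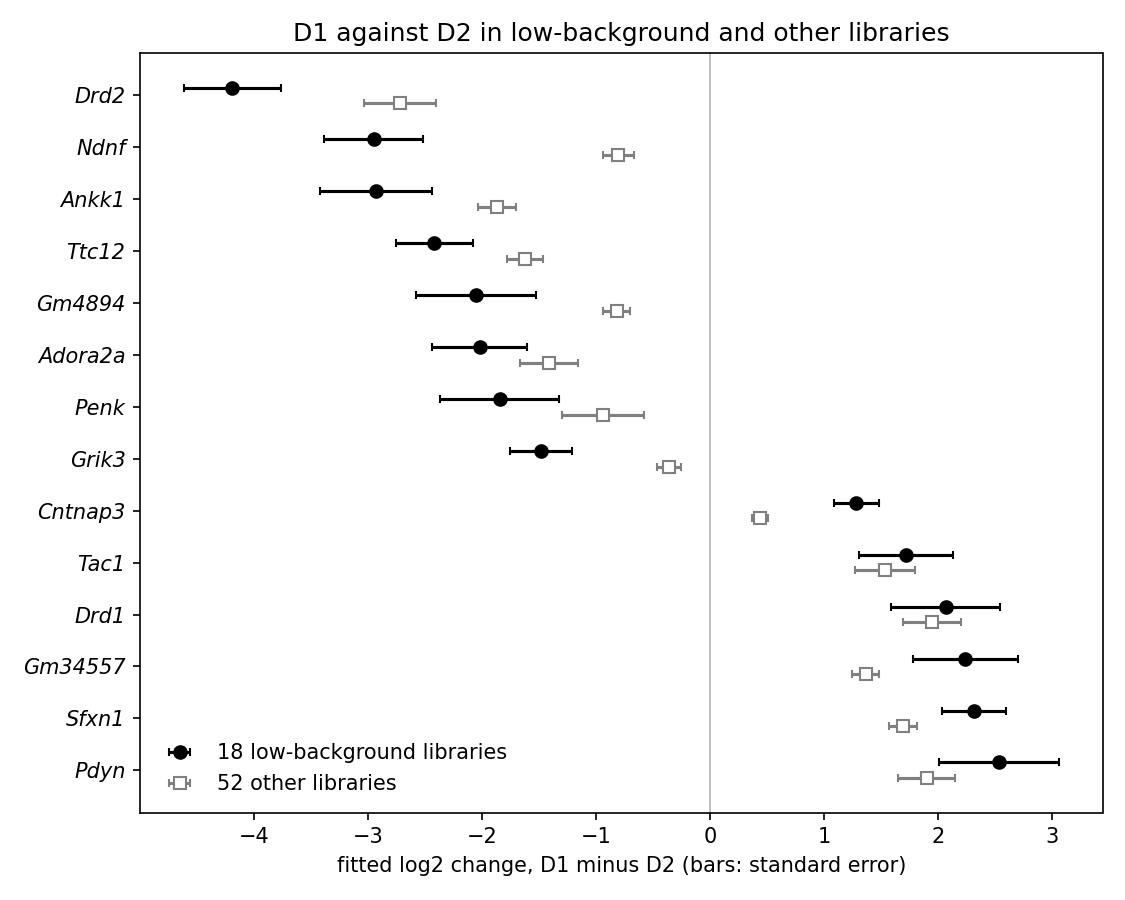
Fitted log2 change, D1 minus D2, with its standard error, in the 18 low-background libraries (filled circles) and the 52 other libraries (open squares) for 14 genes near the receptors, among the line markers or called. Each change plotted has the same sign in both sets, and that of Ndnf was -2.95 in the 18 and -0.81 in the 52.

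The difference of the D1 minus D2 change between the 18 and the 52 was tested in 39717 genes, and 19 passed (0.0478%), 7 (0.0176%) with a higher and 12 (0.0302%) with a lower change in the low-background libraries; with RLE in place of TMM scaling these were 4 and 15, with the silent receptor gene Vmn2r5 among them. Ndnf had the smallest p, with a difference of -2.19 ± 0.35 (adjusted p = 0.00120, edgeR). In the other libraries Ndnf changed by -0.81 ± 0.13. Cntnap3 followed, with a difference of 0.97 ± 0.17 (adjusted p = 0.00364, edgeR) and a change of 0.44 ± 0.07 in the other libraries. Of the 6 genes that passed in the 18, no other passed this test, nor did Drd1, Pdyn, Tac1, Adora2a or Penk. The 18 and the 52 were split by silent receptor counts, whose part in these differences was not tested. The log2 ratio of Drd1 to Drd2 was -4.35 to 2.74 in the other D1 libraries, of which 12 of 29 held more Drd2 than Drd1, and -6.64 to -2.54 in the other D2 libraries.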

How the data were processed

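Nuclear RNA of the nucleus accumbens was measured by RNA sequencing with a low-input stranded total RNA kit, per the labels' protocols. The authors deposited whole-number counts for 55401 gene identifiers in 75 libraries, all of them matched to the labels. featureCounts, DESeq2 and build mm10 are named in the submitters' processing notes, with no version; the aligner and the strand setting are not given in the sources used here. A table of FPKM that the authors also deposited was not used. Symbols and coordinates came from GENCODE M21, which held 55141 of the identifiers.

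For D1 minus D2, the quasi-likelihood test of edgeR 4.0.16 was run on the counts under R 4.3.3 (TMM scaling, filterByExpr by line, treatment as an additive term, two-sided, Benjamini-Hochberg over all genes tested, threshold 0.05), after a test on simulated data. The log2 change is D1 minus D2 with its standard error (SE), and CPM are counts per 1000000 of the total. Alternatives used DESeq2 1.42.0 and limma 3.58.1 (voom with quality weights), RLE scaling, other filters, other limits and fewer libraries. Named genes were the 6 line markers, the members of the 2 line marker lists, the 10 largest rises and 10 largest falls that passed, up to 4 members of each other list that passed, and genes within 200 kb of Drd1 or Drd2. The libraries, the 19 lists and the tests were chosen with earlier results of these data known.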

Additional observations from a re-analysis of the deposited data

Results flagged for a closer look

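In 7 D1 libraries, 3 of 36 checked genes had 1 library beyond Dixon's 95% limit, where chance gives about 1 in 20. All 3 were highest in D1_SC 3, with 248 CPM for Grik3, 26.9 CPM for Ttc12 and 12.3 CPM for Gm4894, and Ttc12 and Gm4894 lie within 200 kb of Drd2.

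The change between lines differed between the 18 low-background and the 52 other libraries, by a test of the difference itself (edgeR, adjusted p under 0.05), for 13 named genes. All but Ndnf and Cntnap3 were named because they passed this test, so the count of 13 is no separate result. The differences are given as the change in the 18 minus that in the 52 on the log2 scale. Ndnf had -2.19 and Cntnap3 0.97. Larger D1 minus D2 changes in the 18 were also found for Cdkn1a, a cell cycle inhibitor (1.30), Msrb1, a methionine sulfoxide reductase (1.24), Gfra1, the co-receptor of the neurotrophic factor GDNF (1.00), and Rasgrf2, a Ras activator (0.70); Gfra1 and Rasgrf2 no longer passed with RLE scaling. Lower ones were found for Aadac (-2.09), Gnat3, a G protein of taste cells (-1.36), Sema3d, a secreted guidance cue (-1.17), Ndst3, an enzyme of heparan sulfate (-0.86), Ptprm, an adhesive phosphatase (-0.82), and Chrm3, the muscarinic M3 receptor (-0.81). Ssxa1 had -3.42, and 1 library, D2_SC 1, held 43.4 CPM of it, against 6.17 CPM or less in the other 17. D2_SC 1 also held the most Aadac, 25.6 CPM, against 9.04 CPM or less in the others. Silent receptor counts, which split the libraries, had medians of 776 CPM (D1) and 1354 CPM (D2) in the 18. In the 52 they were 5355 and 5003 CPM. Medians of Aadac were 0.74 and 4.39 CPM in the 18 and 10.0 and 9.42 CPM in the 52. Those of Gnat3 were 3.55 and 10.8 CPM, and 28.9 and 28.6 CPM. The part of the silent receptor counts in these differences was not tested.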

How the results depend on the processing

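Of the 6 genes called, all passed with RLE, DESeq2 or voom weights, without a filter on low counts and with 1 CPM as the filter, and none of the 6 changed direction under any setting run. The count of genes called was 6, and became 39 with DESeq2 (18 higher, 21 lower), 208 with voom quality weights (111 higher, 97 lower), 16 with no low-count filter, 3 under 1500 CPM (0 higher; Sfxn1, Cntnap3 and Ankk1 lost) and 37 under 4000 CPM on silent receptors, 57 with all 70 libraries, and 3 without the D1 libraries that held more Drd2 than Drd1, of which Drd2 took part in that choice. With the log2 silent receptor counts as a covariate it was 4 (Cntnap3 and Ankk1 lost, adjusted p = 0.0856 each, edgeR). It was 1 in SC libraries alone (Sfxn1) and 0 in the other treatments (edgeR, 631 at an unadjusted p under 0.05). Leaving out 1 library gave 5 to 13, with 13 without D2_SC 1. Settings chosen after seeing the data gave 1 without libraries under 45% long-gene counts (Drd2), 21 with that share as a covariate and 18 without the 3 D2 libraries over 1000 CPM on oligodendrocyte markers. The count of 19 genes whose change differed from the other libraries became 75 with a 1 CPM filter, 73 without the treatment term and 314 with DESeq2. These settings change the libraries or the tool, and the cause was not tested. With the replicate block (10 libraries in 5 same-numbered pairs) 0 genes were called (edgeR, 349 at an unadjusted p under 0.05). There Drd2 changed by -4.33 (adjusted p = 0.118, edgeR), Sfxn1 by 2.17 and Ttc12 by -2.46. Residuals of same-numbered libraries correlated at -0.70 to 0.14, and 0 of 5 D1 libraries correlated best with its own number. That check cannot decide on pairing, since residuals of the line and treatment fit sum to 0 within each line and treatment. D2_SS 9, fitted by its own treatment term, even came out as the best match of D1_SC 3. The labels do not give the animals, so the numbers were not taken as pairs, and pairing stays undecided. DESeq2 and limma were not run with the block. Depth limits low genes most: Ndnf rested on 1 count in D1_SC 9.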
